A study of Saccharomyces cerevisiae with 6 samples.

Results

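The genes described here encode the machinery that makes ribosomal and transfer RNA in budding yeast: RNA polymerases I and III (Pol I and Pol III), the factors that bring them to their promoters, and the Pol III repressor MAF1. They were chosen by name, although earlier results of these data were known. The 37 genes have 7 roles: 7 Pol I subunits, 7 Pol I initiation factors, 3 subunits shared between polymerases, 10 Pol III subunits, 6 subunits of TFIIIC, 3 subunits of TFIIIB, and MAF1. All 37 were measured, each by 1 probe set, among 5449 Saccharomyces cerevisiae genes tested. Expression came from 6 Affymetrix arrays, 2 for each of 3 groups, all labelled as BY4741, a haploid laboratory strain, growing in rich YPD medium. The first group received 200 nM rapamycin, an inhibitor of the growth-controlling kinase complex TORC1, and the second 20 µM of a code-named compound, CID 3528206. The control group received 1% DMSO, a solvent, and every group was treated for 3 hours. The labels do not say if the solvent was also in the rapamycin and CID 3528206 cultures. They list duplicates with no word on separate cultures, and the p-values then reflect nothing beyond the spread of these samples.

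Pol I transcribes the large ribosomal RNA precursor. Pol III transcribes the small ribosomal RNA of the large subunit, the transfer RNAs and other short RNAs, with TFIIIC binding the gene and placing TFIIIB upstream of it. Active TORC1 favours both polymerases in yeast: it keeps the initiation factor Rrn3 joined to Pol I, and through the kinase Sch9 it keeps the repressor Maf1 phosphorylated and away from Pol III. The arrays measure messenger RNA for the machinery, not the activity of the polymerases.

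Values are log2 values deposited by the authors, and all differences are in log2 units. Errors after ± are limma standard errors with n = 2 arrays per group, and a gene was called when its p, adjusted over the 5449 genes by Benjamini-Hochberg, was under 0.05. The mean of every one of the 37 genes lay above 4.38, the 95th percentile of the array's probe sets for another yeast, Schizosaccharomyces pombe. CID 3528206 replicate 1 stood apart: the 3' probe sets of 7 control genes exceeded their 5' probe sets by 1.69 there, against 0.91 to 1.14 in the other 5 arrays. Across all genes, the replicates differed with a standard deviation of 0.122 for rapamycin, 0.267 for CID 3528206 and 0.123 for DMSO. The 3 groups share 1 spread per gene in the model, so a gene has the same standard error in every comparison. The wider spread of CID 3528206 therefore also enters the errors of rapamycin against DMSO. The strain check went against the label: 4 genes deleted in BY4741 read 10.39 to 12.11 over the 6 arrays. In the DMSO arrays, 7 genes specific to a cells, which BY4741 should be, read 4.89 to 7.63 and 5 genes of alpha cells read 10.90 to 13.47. These markers moved with treatment: 4 of the 7 a cell genes were higher than in DMSO after rapamycin and 5 after CID 3528206, and 3 of the 5 alpha cell genes were lower after rapamycin and 5 after CID 3528206. Their part in the results below was not tested. The strain is therefore given here only as the labels state it.

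After rapamycin, 8 of the 37 genes were higher than after DMSO, 10 were lower and 19 were not called. The genes that rose were RRN3, RRN6, RRN11, RPC82, RPC37, RPC34, TFC4 and BRF1. Those that fell were RPA43, RRN5, RRN9, RPO26, RPC31, RPC17, RPC11, TFC7, TFC8 and SPT15. RRN3 alone changed at least 2-fold, while 461 of the 5449 genes tested were called with such a change. The called share was 48.6%, against 52.7% of all genes, with 26.5% of all genes called higher and 26.2% called lower. The median difference was -0.12 over the 37 genes and -0.02 over all genes. In cultures measured as a whole, fewer cells that make an RNA and less of that RNA per cell cannot be told apart.

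After CID 3528206, 9 of the 37 were higher than after DMSO, 11 were lower and 17 were not called. RRN3, RRN6, RRN11, RET1, RPC82, RPC37, RPC34, TFC4 and BRF1 rose. RPA43, RRN5, RRN9, RPO26, RPC31, RPC17, RPC11, TFC1, TFC8, SPT15 and MAF1 fell. None of the called differences reached 2-fold, while 385 of the 5449 genes tested were called with such a change. The called share was 54.1%, against 50.5% of all genes, with 26.1% of all genes called higher and 24.4% called lower. The median difference was -0.03 over the 37 genes and -0.0054 over all genes. Both comparisons use the same 2 DMSO arrays, so a DMSO array that reads high or low for a gene moves both differences the same way. With CID 3528206 replicate 1 left out, 11 members were called higher and 12 lower, and the shares over all genes were 29.9% and 26.6%. Wherever 1 array is left out below, the array that remains in its group is assumed to vary like the other groups. Leaving out a rapamycin or DMSO array lowered the share of all genes called in every comparison, so calls were not lost among the members alone. Leaving out a CID 3528206 array raised that share.

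**Figure D1:**
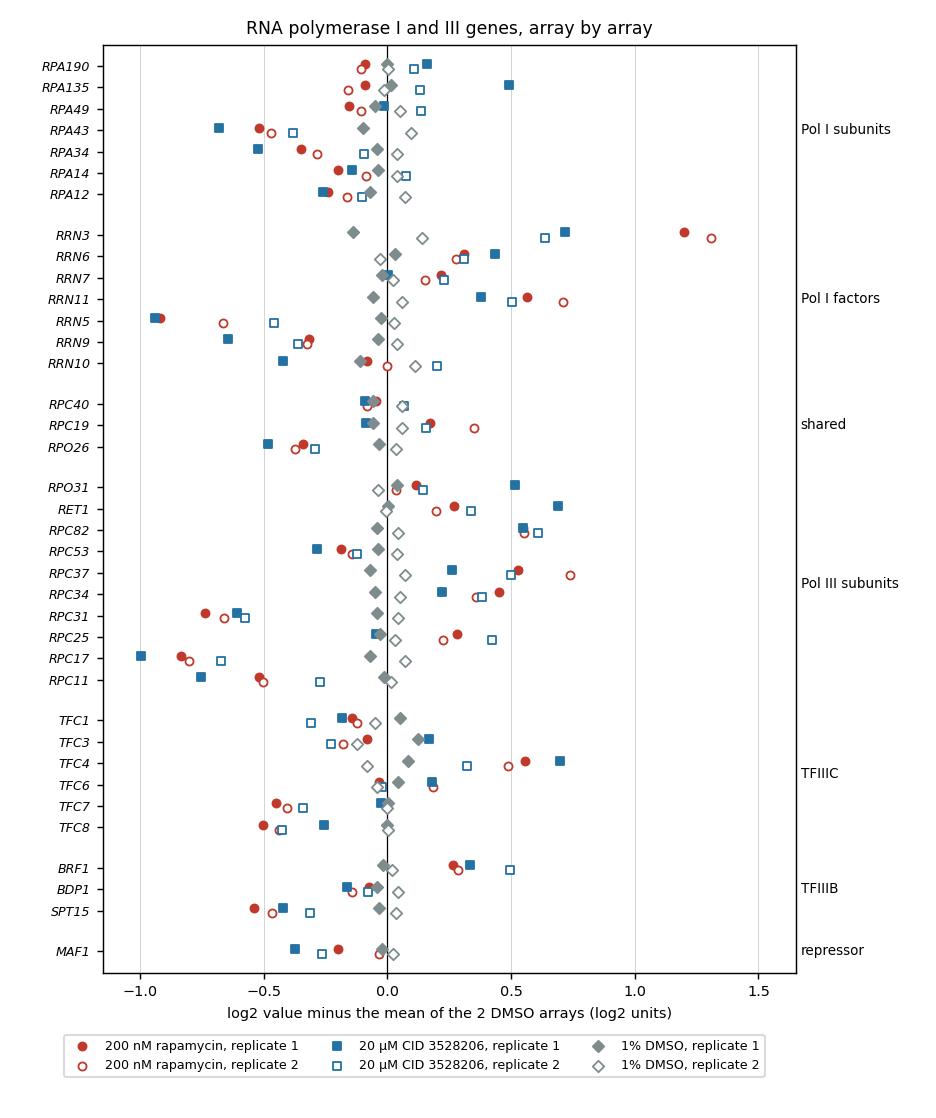
Each of the 37 genes is drawn on a line, grouped by role, with its log2 value in each array minus the mean of the 2 DMSO arrays on the horizontal axis. Filled points are replicate 1 and open points replicate 2. RRN3 lies farthest to the right of the DMSO arrays and RRN5 and RPC17 farthest to the left, and in most genes the CID 3528206 replicates are farther apart than those of the other groups.

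Among the 7 Pol I subunits, 1 fell after each treatment, RPA43, and none was called higher by limma. At an unadjusted p under 0.05 the count higher was 0 after rapamycin and 1 after CID 3528206. RPA43, a subunit of the polymerase stalk that contacts Rrn3, had values of 10.18 and 10.23 after rapamycin, 10.02 and 10.32 after CID 3528206, and 10.60 and 10.80 after DMSO. All 4 treated arrays were below both DMSO arrays. The difference from DMSO was -0.50 ± 0.12 after rapamycin (adjusted p = 0.0155) and -0.53 ± 0.12 after CID 3528206 (adjusted p = 0.0128).

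The catalytic centre of Pol I is formed by RPA190 and RPA135, its largest subunits. RPA190 had values of 11.93 and 11.91 after rapamycin, 12.18 and 12.13 after CID 3528206, and 12.02 in both DMSO arrays. The 3 groups did not overlap, with rapamycin lowest and CID 3528206 highest, but the differences of -0.10 (adjusted p = 0.242) and 0.13 (adjusted p = 0.129) were not called. RPA135 read 12.26 and 12.19 after rapamycin, 12.84 and 12.48 after CID 3528206, and 12.37 and 12.33 after DMSO. The groups lay in the same order, and the CID 3528206 replicates were 0.36 apart. RPA135 differed from DMSO by -0.13 after rapamycin (adjusted p = 0.418) and by 0.31 after CID 3528206 (adjusted p = 0.0785).

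RPA34, which with RPA49 forms a dimer related to the Pol II factor TFIIF, read 11.78 and 11.84 after rapamycin, 11.60 and 12.03 after CID 3528206, and 12.09 and 12.17 after DMSO. The treated arrays were all below the DMSO arrays, by -0.32 ± 0.14 after rapamycin (adjusted p = 0.105) and -0.31 ± 0.14 after CID 3528206 (adjusted p = 0.114), which missed the threshold. The rapamycin difference of RPA34 passed it under 6 of 20 alternatives, among them the replicate number as a block (limma, adjusted p = 0.0467). RPA49, RPA14 (the partner of RPA43 in the stalk) and RPA12 (which serves RNA cleavage) had differences of -0.20 to -0.13 after rapamycin and -0.18 to 0.06 after CID 3528206, none of them called. RPA43 is the neighbour of RPA190 on chromosome XV (YOR340C beside YOR341W), and of the pair only RPA43 was called in either comparison. Its rapamycin call was lost without rapamycin replicate 1, rapamycin replicate 2 or DMSO replicate 2, with differences of -0.52 to -0.40 and an adjusted p of up to 0.097, and its CID 3528206 call without DMSO replicate 2 (-0.43, adjusted p = 0.0853). RPA135, RPA34 and RPA12 passed the threshold in the CID 3528206 comparison when replicate 2 of that group was left out, with differences of 0.49, -0.52 and -0.26, which rest on the array that stood apart. Without replicate 1 instead, the same differences were 0.13, -0.09 and -0.10 and not called.

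Of the 7 Pol I initiation factors, 3 rose and 2 fell after each treatment. RRN3 encodes the factor that makes Pol I able to start transcription and is a target of TORC1 signalling. Its values were 10.15 and 10.26 after rapamycin, 9.67 and 9.59 after CID 3528206, and 8.81 and 9.09 after DMSO. The 3 groups were fully separate, highest after rapamycin and lowest after DMSO. RRN3 was 2.38-fold higher after rapamycin than after DMSO (1.25 ± 0.11, adjusted p = 0.000301) and 1.60-fold higher after CID 3528206 (0.68 ± 0.11, adjusted p = 0.00361).

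The core factor, which binds the promoter next to the start site, is built of RRN6, RRN7 and RRN11. RRN11 read 9.29 and 9.44 after rapamycin, 9.10 and 9.23 after CID 3528206, and 8.67 and 8.78 after DMSO. All 4 treated arrays exceeded both DMSO arrays, by 0.64 ± 0.09 after rapamycin (adjusted p = 0.00193) and 0.44 ± 0.09 after CID 3528206 (adjusted p = 0.00855). RRN6 also rose, by 0.29 after rapamycin (adjusted p = 0.0179) and 0.37 after CID 3528206 (adjusted p = 0.00808). RRN7, the subunit related to the Pol II factor TFIIB, was not called, with differences of 0.18 after rapamycin and 0.12 after CID 3528206.

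The upstream activation factor includes RRN5, RRN9 and RRN10. RRN5 read 7.23 and 7.48 after rapamycin, 7.21 and 7.69 after CID 3528206, and 8.12 and 8.17 after DMSO. It was lower in every treated array, by -0.79 ± 0.17 after rapamycin (adjusted p = 0.00944) and -0.70 ± 0.17 after CID 3528206 (adjusted p = 0.016). RRN9 fell by 0.32 after rapamycin (adjusted p = 0.0423) and by 0.50 after CID 3528206 (adjusted p = 0.00953). RRN10 was not called: its CID 3528206 replicates read 8.33 and 8.95, the widest replicate gap among the 37 genes, and the DMSO arrays lay between them at 8.64 and 8.86. In each comparison with DMSO, RRN6 and RRN11 of the core factor were thus called higher, and RRN5 and RRN9 of the upstream activation factor lower.

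Of these calls, RRN3 passed in both DMSO comparisons under all 20 alternatives, and RRN11 passed in the rapamycin comparison under the 19 that measured it, since 1 filter removed it. RRN6 and RRN9 lost their rapamycin calls when any 1 of the 4 arrays was left out, at 0.26 to 0.33 and -0.36 to -0.28, and RRN5 without rapamycin replicate 1 (-0.67) or DMSO replicate 2 (-0.77). In the CID 3528206 comparison, RRN11 lost its call without DMSO replicate 1 (0.38), RRN6 and RRN9 without DMSO replicate 2 (0.34 and -0.46), and RRN5 without either DMSO array (-0.72 and -0.67). Without CID 3528206 replicate 1, the RRN5 difference was -0.46 (adjusted p = 0.0144) and RRN7 was called at 0.23 (adjusted p = 0.031). RRN10 was called at -0.42 (adjusted p = 0.0129) without CID 3528206 replicate 2, but was 0.20 without replicate 1 (adjusted p = 0.15), so its sign depended on the array kept.

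Of the 3 shared subunits, RPO26 fell after each treatment and the other two were not called. RPO26 is a subunit of all nuclear RNA polymerases, Pol II included. It read 12.30 and 12.27 after rapamycin, 12.16 and 12.35 after CID 3528206, and 12.61 and 12.68 after DMSO. Every treated array was below both DMSO arrays, by -0.36 ± 0.09 after rapamycin (adjusted p = 0.0147) and -0.39 ± 0.09 after CID 3528206 (adjusted p = 0.0119). RPC40 and RPC19 form the assembly platform of Pol I and Pol III. RPC40 read 12.14 and 12.11 after rapamycin, 12.10 and 12.26 after CID 3528206, and 12.13 and 12.25 after DMSO, with overlapping groups. RPC19 had 11.83 and 12.00 after rapamycin, 11.57 and 11.81 after CID 3528206, and 11.60 and 11.71 after DMSO. Only the rapamycin arrays of RPC19 lay apart from DMSO, at 0.26 ± 0.11 (adjusted p = 0.0934). The rapamycin call of RPO26 was lost when any 1 of the 4 arrays was left out, at -0.39 to -0.32, and its CID 3528206 call without either DMSO array, at -0.42 and -0.35.

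Pol III subunits went both ways: 3 of 10 rose and 3 fell after rapamycin, and 4 rose and 3 fell after CID 3528206. RPC82, RPC34 and RPC31 form a trimer found only in Pol III that serves initiation, and its members were called in opposite directions. RPC82 read 10.76 and 10.77 after rapamycin, 10.77 and 10.83 after CID 3528206, and 10.18 and 10.26 after DMSO. RPC31 read 10.12 and 10.20 after rapamycin, 10.25 and 10.28 after CID 3528206, and 10.82 and 10.90 after DMSO. Both genes separated treated from DMSO arrays with no overlap, RPC82 above and RPC31 below. RPC82 rose by 0.55 ± 0.07 after rapamycin (adjusted p = 0.00124) and 0.58 ± 0.07 after CID 3528206 (adjusted p = 0.00121). RPC31 fell by 0.70 after rapamycin (SE 0.07, adjusted p = 0.000556) and by 0.59 after CID 3528206 (SE 0.07, adjusted p = 0.00128). RPC34, the remaining member of the trimer, rose by 0.40 after rapamycin (adjusted p = 0.00983) and 0.30 after CID 3528206 (adjusted p = 0.0292).

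RPC17 and RPC25 form the stalk of Pol III. RPC17 had values of 8.58 and 8.62 after rapamycin, 8.42 and 8.75 after CID 3528206, and 9.35 and 9.49 after DMSO. The treated arrays all lay below the DMSO arrays, and RPC17 had the most negative difference of the 37 genes after both treatments, -0.82 ± 0.12 after rapamycin (adjusted p = 0.00221) and -0.83 ± 0.12 after CID 3528206 (adjusted p = 0.00238). RPC25 was not called, at 0.25 after rapamycin and 0.19 after CID 3528206. RPC11, the small subunit that serves RNA cleavage and reinitiation, fell by 0.51 after each treatment (adjusted p = 0.0307 after rapamycin and 0.0314 after CID 3528206).

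RPC37 and RPC53 form the TFIIF-related dimer of Pol III. RPC37 read 10.29 and 10.51 after rapamycin, 10.03 and 10.27 after CID 3528206, and 9.70 and 9.84 after DMSO. It was higher in all treated arrays, by 0.63 ± 0.12 after rapamycin (adjusted p = 0.00567) and 0.38 ± 0.12 after CID 3528206 (adjusted p = 0.0374). RPC53 was not called, at -0.16 after rapamycin and -0.20 after CID 3528206. Among the catalytic subunits, RPO31 read 10.70 and 10.62 after rapamycin, 11.10 and 10.73 after CID 3528206, and 10.62 and 10.55 after DMSO. The rapamycin arrays of RPO31 overlapped the DMSO arrays, and the CID 3528206 difference of 0.33 ± 0.13 was not called (adjusted p = 0.0731). RET1 read 11.48 and 11.41 after rapamycin, 11.91 and 11.55 after CID 3528206, and 11.22 and 11.21 after DMSO. It lay above DMSO in all treated arrays, with a difference of 0.23 ± 0.12 after rapamycin that was not called (adjusted p = 0.151) and one of 0.51 ± 0.12 after CID 3528206 that was (adjusted p = 0.0146).

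**Figure D2:**
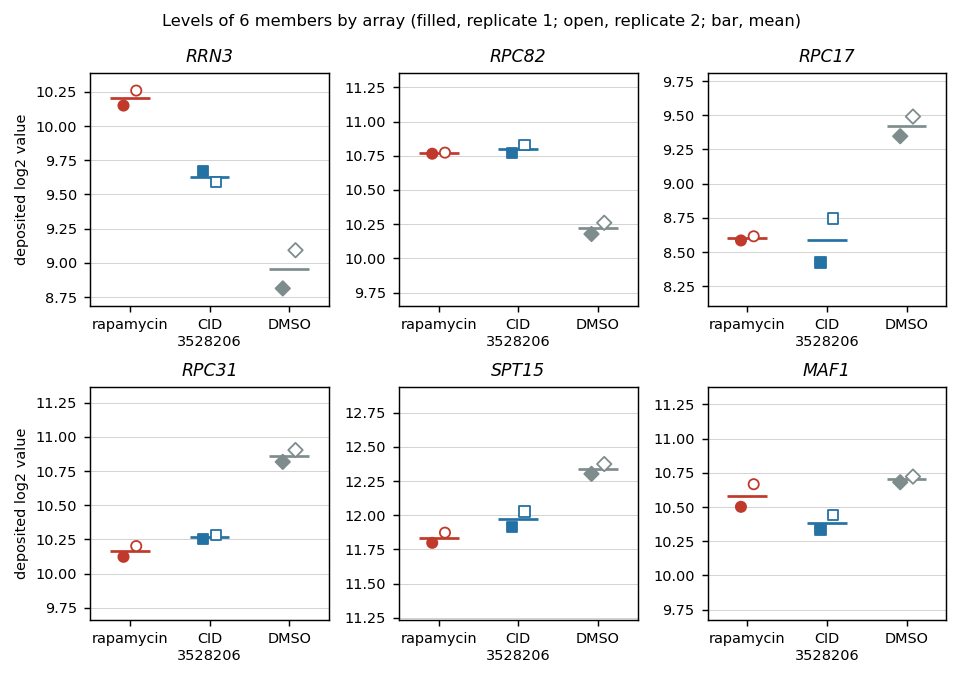
Deposited log2 values of RRN3, RPC82, RPC17, RPC31, SPT15 and MAF1 in the 6 arrays, with a panel per gene, the groups along the horizontal axis, filled points for replicate 1, open points for replicate 2 and bars at group means. All panels span the same number of log2 units but start at different levels. In RRN3 the 3 groups are separate, RPC82 is higher in all treated arrays, RPC17, RPC31 and SPT15 are lower in all of them, and MAF1 differs most in the CID 3528206 arrays.

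RPC82 and RPC31 kept their calls against DMSO under all 20 alternatives after both treatments, RPC37 did so after rapamycin, and RPC17 kept both calls under the 19 alternatives that measured it. RPC34 lost its rapamycin call without rapamycin replicate 1 or DMSO replicate 1 (0.35 to 0.36), and RPC11 without any 1 of the 4 arrays (-0.52 to -0.50). In the CID 3528206 comparison, the calls of RET1 (0.52 and 0.51), RPC34 (0.25 and 0.35) and RPC11 (-0.53 and -0.50) were lost without either DMSO array, and that of RPC37 without either DMSO array or CID 3528206 replicate 2 (0.26 to 0.45). RPC37, RPC34 and RPC11 also missed the threshold in this comparison when either rapamycin array was left out, which leaves the differences as they were (adjusted p = 0.0504, 0.0606 and 0.0602). Leaving out CID 3528206 replicate 1 gave 0.34 for RET1 and -0.27 for RPC11, both still called, and a call for RPC25 at 0.42 (adjusted p = 0.00331). Leaving out replicate 2 gave calls for RPO31 at 0.52 and RPC53 at -0.28, which were 0.14 and -0.12 without replicate 1 and not called.

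TFIIIC, which recognises promoter elements inside the genes Pol III transcribes, has 6 subunits. After rapamycin TFC4 rose and TFC7 and TFC8 fell, and after CID 3528206 TFC4 rose and TFC1 and TFC8 fell. TFC4, the subunit that recruits TFIIIB, had values of 10.24 and 10.17 after rapamycin, 10.38 and 10.00 after CID 3528206, and 9.76 and 9.60 after DMSO. All 4 treated arrays exceeded both DMSO arrays, by 0.52 ± 0.13 after rapamycin (adjusted p = 0.0193) and 0.51 ± 0.13 after CID 3528206 (adjusted p = 0.0217). TFC8 read 8.87 and 8.93 after rapamycin, 9.11 and 8.94 after CID 3528206, and 9.37 in both DMSO arrays. It was lower in all treated arrays, by -0.47 ± 0.08 after rapamycin (adjusted p = 0.00409) and -0.34 ± 0.08 after CID 3528206 (adjusted p = 0.0147).

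TFC7 read 9.18 and 9.23 after rapamycin, 9.60 and 9.29 after CID 3528206, and 9.63 in both DMSO arrays. Here the rapamycin arrays lay apart from DMSO at -0.43 ± 0.11 (adjusted p = 0.0194), while 1 CID 3528206 array was near DMSO and the difference of -0.18 was not called (adjusted p = 0.211). TFC1 differed by -0.13 after rapamycin (adjusted p = 0.189) and by -0.25 after CID 3528206 (adjusted p = 0.0393). TFC3 and TFC6, subunits of the module that binds the B block, had no call, with differences of -0.13 and 0.08 after rapamycin and -0.03 and 0.08 after CID 3528206. The rapamycin call of TFC8 passed under the 19 alternatives that measured it. TFC4 lost its rapamycin call without rapamycin replicate 1, rapamycin replicate 2 or DMSO replicate 2 (0.44 to 0.56) and TFC7 without any 1 of the 4 arrays (-0.45 to -0.40). In the CID 3528206 comparison, TFC4 (0.59 and 0.43) and TFC8 (both -0.34) lost their calls without either DMSO array, and TFC1 without either DMSO array or CID 3528206 replicate 2 (-0.29 to -0.18), and, with its difference unchanged, without either rapamycin array (adjusted p = 0.0888). Without CID 3528206 replicate 1, TFC4 differed by 0.32 and TFC7 was called at -0.34 (adjusted p = 0.00575).

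In TFIIIB, BRF1 rose and SPT15 fell after each treatment, and BDP1 was not called. BRF1, the TFIIB-related subunit to which Maf1 denies access to Pol III, read 10.30 and 10.33 after rapamycin, 10.37 and 10.54 after CID 3528206, and 10.02 and 10.06 after DMSO. All treated arrays were above both DMSO arrays, by 0.27 ± 0.08 after rapamycin (adjusted p = 0.0276) and 0.41 ± 0.08 after CID 3528206 (adjusted p = 0.00675). BDP1, the subunit that completes TFIIIB on the DNA, read 9.72 and 9.65 after rapamycin, 9.64 and 9.72 after CID 3528206, and 9.76 and 9.84 after DMSO. Its treated arrays lay just below the DMSO arrays, by -0.11 (adjusted p = 0.248) and -0.12 (adjusted p = 0.211). The rapamycin call of BRF1 was lost without any 1 of the 4 arrays, at 0.25 to 0.29, and its CID 3528206 call without DMSO replicate 1, at 0.39.

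SPT15 encodes the TATA-binding protein, which works with Pol I, II and III. It read 11.80 and 11.87 after rapamycin, 11.91 and 12.03 after CID 3528206, and 12.30 and 12.37 after DMSO. Every treated array was below both DMSO arrays, by -0.50 ± 0.08 after rapamycin (adjusted p = 0.00254) and -0.37 ± 0.08 after CID 3528206 (adjusted p = 0.00909). The CID 3528206 call was lost without DMSO replicate 2, at -0.33 (adjusted p = 0.0779), and the rapamycin call passed under all 20 alternatives.

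MAF1 holds Pol III back when nutrients or TORC1 activity are low, and it is controlled at the level of the protein by phosphorylation. Its messenger RNA read 10.50 and 10.67 after rapamycin, 10.33 and 10.44 after CID 3528206, and 10.68 and 10.72 after DMSO. The treated arrays were lower than both DMSO arrays, and the rapamycin array at 10.67 lay close to the DMSO array at 10.68. The difference was -0.12 ± 0.08 after rapamycin, which was not called (adjusted p = 0.284), and -0.32 ± 0.08 after CID 3528206, which was (adjusted p = 0.0229). Without either DMSO array the CID 3528206 call was lost, at -0.34 and -0.30 with an adjusted p of up to 0.129.

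Between the treatments, 1 of the 37 genes was called. RRN3 was lower after CID 3528206 than after rapamycin, by -0.57 ± 0.11 (adjusted p = 0.0201), and its 95% interval ran from -0.84 to -0.31. No member was called higher after CID 3528206 by limma, and 2 were at an unadjusted p under 0.05, RPA190 and RPA135. The called share was 2.70%, against 18.8% of all genes, with 9.32% of all genes called higher and 9.43% called lower. The median difference was -0.0029 over all genes. RPA190 was 0.23 ± 0.06 higher after CID 3528206 (adjusted p = 0.0544, interval 0.07 to 0.39) and RPA135 0.44 ± 0.12 higher (adjusted p = 0.0557, interval 0.14 to 0.74). With the trend of the values with gene length removed, RPA190 differed by 0.03 (adjusted p = 0.846) and RPA135 by 0.27 (adjusted p = 0.0294). The intervals of the other members each included 0 and together reached from -0.56 to 0.57, so a missed threshold does not show that the treatments acted alike on those genes. The concentrations of the compounds differ, and no other dose was measured. With the replicate number as a block, 2 members were called higher (RPA190 and RPA135) and 2 lower (RRN3 and RPC37). The shares over all genes were then 13.7% and 14.0%.

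The call of RRN3 between the treatments was lost when either rapamycin array was left out, where far fewer of all genes were called as well. Without rapamycin replicate 1 the difference was -0.63 (adjusted p = 0.101), and without rapamycin replicate 2 it was -0.52 (adjusted p = 0.147). Over all alternatives its adjusted p lay between 0.00841 and 0.147. Leaving out CID 3528206 replicate 1 kept RRN3 at -0.61 (adjusted p = 0.0189) and added calls for RPA135 (0.26), RPA49 (0.27) and RPC11 (0.24), with adjusted p from 0.0427 to 0.0471. With replicate 2 left out instead, so that CID 3528206 replicate 1 stood alone for its group, 6 members were called higher and 7 lower, with RPC11 among the lower ones at -0.24. The shares over all genes were then 22.8% and 25.7%.

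**Figure D3:**
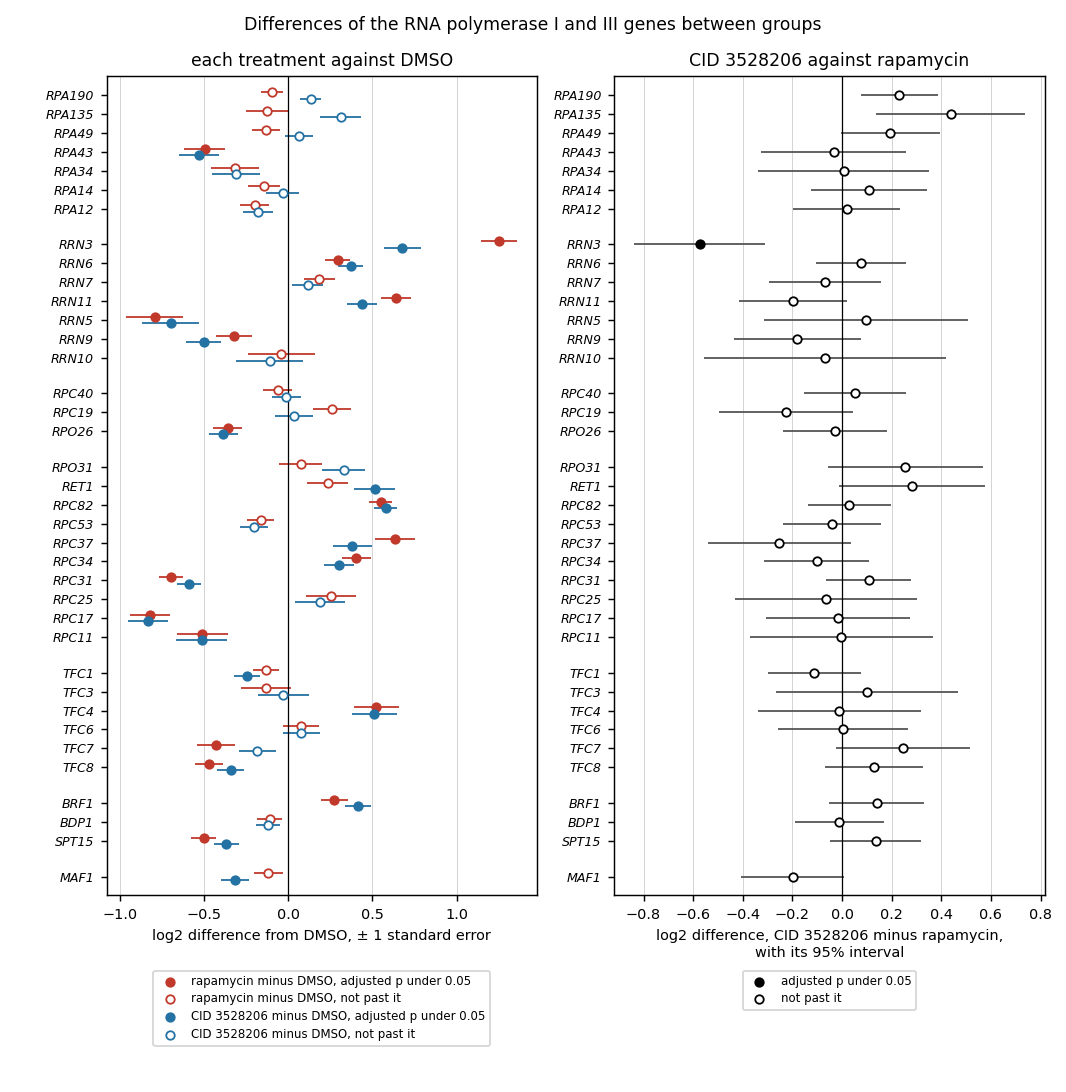
The left panel gives the log2 difference of each of the 37 genes from DMSO after rapamycin and after CID 3528206, with 1 standard error, and the right panel the difference between CID 3528206 and rapamycin with its 95% interval. Filled points had an adjusted p under 0.05. On the right, RRN3 is the only filled point, and the intervals of RPA190 and RPA135 lie above 0.

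The replicate arrays differed along the length of the genes. Gene length was taken from the RefSeq annotation of assembly R64, where 97.0% of the tested genes have a length that is a multiple of 3, so it is nearly always the coding length. All 6 members longer than 3000 bases, RPA190, RPO31, RPA135, TFC3, RET1 and TFC4, read higher in CID 3528206 replicate 1 than in replicate 2, with a median gap of 0.37. All 14 members shorter than 1000 bases read lower in replicate 1, with a median gap of -0.24. Across the 37 members, the correlation of the gap between replicates with log2 length was r = 0.381 for rapamycin, 0.783 for CID 3528206 and 0.597 for DMSO, against 0.163, 0.477 and 0.253 across all genes. These are descriptions over genes that share the same arrays. CID 3528206 replicate 1 is also the array in which 3' control probe sets most exceeded their 5' partners.

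The treatment differences of the members followed length too. Across the members, r with log2 length was 0.333 for the rapamycin difference from DMSO, 0.530 for that of CID 3528206, and 0.331 between the treatments. Across all genes, r was 0.057, 0.184 and 0.224. Leaving out CID 3528206 replicate 1 gave 0.286 against DMSO and -0.255 against rapamycin for the members, and 0.077 and 0.025 for all genes. When the trend with length over all genes was removed from each array, a setting chosen after seeing the data, no call of a member was lost in any of the 3 comparisons and 4, 2 and 2 were gained. Some differences that were not called shrank: for CID 3528206 against DMSO, RPA135 had 0.04 (adjusted p = 0.62) and RPO31 0.02 (adjusted p = 0.842), and between the treatments RPA190 had 0.03. Most called differences of CID 3528206 from DMSO also became smaller, although they stayed called. RRN6 went from 0.37 to 0.17, RET1 from 0.51 to 0.25 and TFC4 from 0.51 to 0.28. SPT15 went from -0.37 to -0.20 and RPO26 from -0.39 to -0.22. RPC37, RPC34, TFC1 and TFC8 went the other way, to 0.53, 0.42, -0.36 and -0.43. The part of RNA quality in these gaps was not tested.

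**Figure D4:**
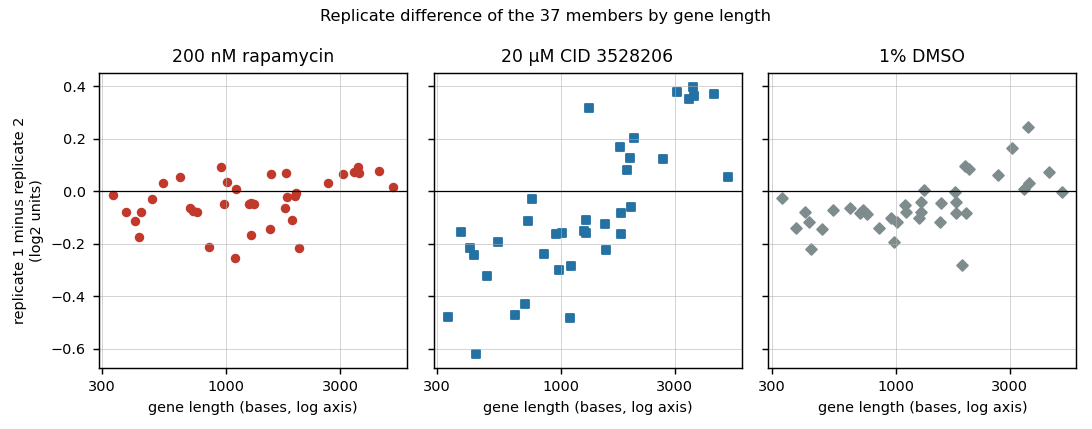
Each panel is a group, and each point is 1 of the 37 genes, placed by its length in bases on a log axis and by its log2 value in replicate 1 minus that in replicate 2. In CID 3528206 the genes over 3000 bases lie above 0 and those under 1000 bases below it, and the spread is wider than in rapamycin or DMSO.

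Genes of the same pathways outside the 37 were counted by list. The 4 further subunits shared by all nuclear polymerases had 0 higher and 1 lower after rapamycin (limma, 0 higher at an unadjusted p under 0.05) and 0 higher and 2 lower after CID 3528206 (likewise 0). RPB8 fell by 0.66 after rapamycin (adjusted p = 0.00335) and 0.35 after CID 3528206 (adjusted p = 0.0376), and RPB5 by 0.39 after CID 3528206 (adjusted p = 0.0412). Of 7 subunits found only in Pol II, 3 fell after rapamycin and 2 after CID 3528206, and none was higher by limma or at an unadjusted p under 0.05. RPB9 had differences of -0.50 and -0.66 in those comparisons and RPB3 of -0.46 and -0.34, while RPO21, the largest subunit, had -0.04 and 0.03 and was not called.

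Of 10 measured genes among 11 other factors of Pol I and III, 2 rose and 1 fell after rapamycin, and 2 rose and 4 fell after CID 3528206. NSI1, which acts in the termination of Pol I, rose by 0.35 after rapamycin (adjusted p = 0.0133) and 0.40 after CID 3528206 (adjusted p = 0.00817). PZF1, which encodes TFIIIA, the factor for the gene of the smallest ribosomal RNA, rose by 0.29 after rapamycin (adjusted p = 0.0369). HMO1, a protein bound along active ribosomal DNA, had -0.35 after rapamycin (adjusted p = 0.0579) and fell by 0.47 after CID 3528206 (adjusted p = 0.0232). NHP6A, which encodes a DNA-bending protein, fell by 0.32 after rapamycin (adjusted p = 0.0315) and by 0.49 after CID 3528206 (adjusted p = 0.0073).

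Among 8 regulators of Maf1 and TFIIIB, 4 rose and 1 fell after each treatment. PPH3 and PSY2 encode the catalytic and a regulatory subunit of the phosphatase that removes phosphate from Maf1. PPH3 rose by 1.11 ± 0.14 after rapamycin (adjusted p = 0.00129) and 0.61 ± 0.14 after CID 3528206 (adjusted p = 0.0131). PSY2 rose by 0.73 ± 0.12 after rapamycin (adjusted p = 0.00297) and 0.68 ± 0.12 after CID 3528206 (adjusted p = 0.00438). SCH9, the kinase that phosphorylates Maf1 under TORC1, rose by 0.65 after rapamycin (adjusted p = 0.00233) and 0.45 after CID 3528206 (adjusted p = 0.0105). Casein kinase II, which acts on Maf1 and TFIIIB, had CKA2 higher (0.38 after rapamycin and 0.40 after CID 3528206) and CKB1 lower (-0.29 and -0.22 in those comparisons), all called. None of the genes in these 4 lists was called between the treatments by limma, and 3 had an unadjusted p under 0.05 with CID 3528206 higher and 3 with it lower.

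SPT15 is also covered by 6 control probe sets, 2 each for the 5', middle and 3' parts of its messenger RNA. They gave a second reading of the same RNA from the same arrays. The 2 probe sets of a part gave similar values, so the 6 are not separate readings. After rapamycin the 3' pair differed from DMSO by -0.44 and -0.43 and the 5' pair by -0.64 and -0.66. All 6 were lower than in DMSO after rapamycin, by -0.66 to -0.43, with adjusted p from 0.00506 to 0.0161 over all 10928 probe sets, where 12.2% were called lower. All 6 were also lower after CID 3528206, by -0.58 to -0.31, with adjusted p from 0.0137 to 0.049 and 10.3% of all probe sets called lower. None was called between the treatments, where 3.74% of all probe sets were, and 0 had an unadjusted p under 0.05. The counts fell to 2 without rapamycin replicate 1, 3 without rapamycin replicate 2 and 1 without DMSO replicate 2 in the rapamycin comparison. In the CID 3528206 comparison they fell to 3 without CID 3528206 replicate 1, 3 without either rapamycin array and 0 without either DMSO array.

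The array holds 24 control probe sets named for ribosomal RNA, 7 of them designed for S. pombe. For the reason given in the next paragraph, they do not measure the amount of ribosomal RNA or the output of Pol I. Of the 24, 11 were lower than in DMSO after rapamycin and 9 after CID 3528206, and none was called higher. By unadjusted p under 0.05, 1 was higher after rapamycin and 0 after CID 3528206. The higher one, an S. pombe probe set for the large subunit RNA, read 3.07 to 3.57 over the 6 arrays, under the 4.38 given above. The middle S. pombe probe set for the small subunit RNA, called lower after rapamycin, read 4.19 to 4.90, near that level. No probe set differed between the treatments at the threshold, while 3 had an unadjusted p under 0.05. Probe sets of the same ribosomal RNA disagreed. The 3' probe set of the small subunit RNA read 9.74 and 9.15 after rapamycin, 10.04 and 9.94 after CID 3528206, and 11.29 and 10.91 after DMSO. Its 5' probe set read 13.46 and 13.31 after rapamycin, 12.44 and 13.58 after CID 3528206, and 13.51 and 13.43 after DMSO. The 3' probe set was lower in all treated arrays, by -1.65 after rapamycin and -1.11 after CID 3528206, whereas the 5' probe set differed by -0.09 after rapamycin and was low in CID 3528206 replicate 1 alone.

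The labelling kit primes from poly(A) tails, which mature ribosomal RNA lacks, so these probe sets do not measure the amount of ribosomal RNA. Which RNA they read was not tested. Leaving out CID 3528206 replicate 1 lowered the count after that compound to 3, and leaving out DMSO replicate 1 or 2 lowered it to 3 or 5. In the rapamycin comparison it was 7 without rapamycin replicate 2 or without DMSO replicate 1. Centring each array on its median gave 17 probe sets after either treatment.

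**Figure D5:**
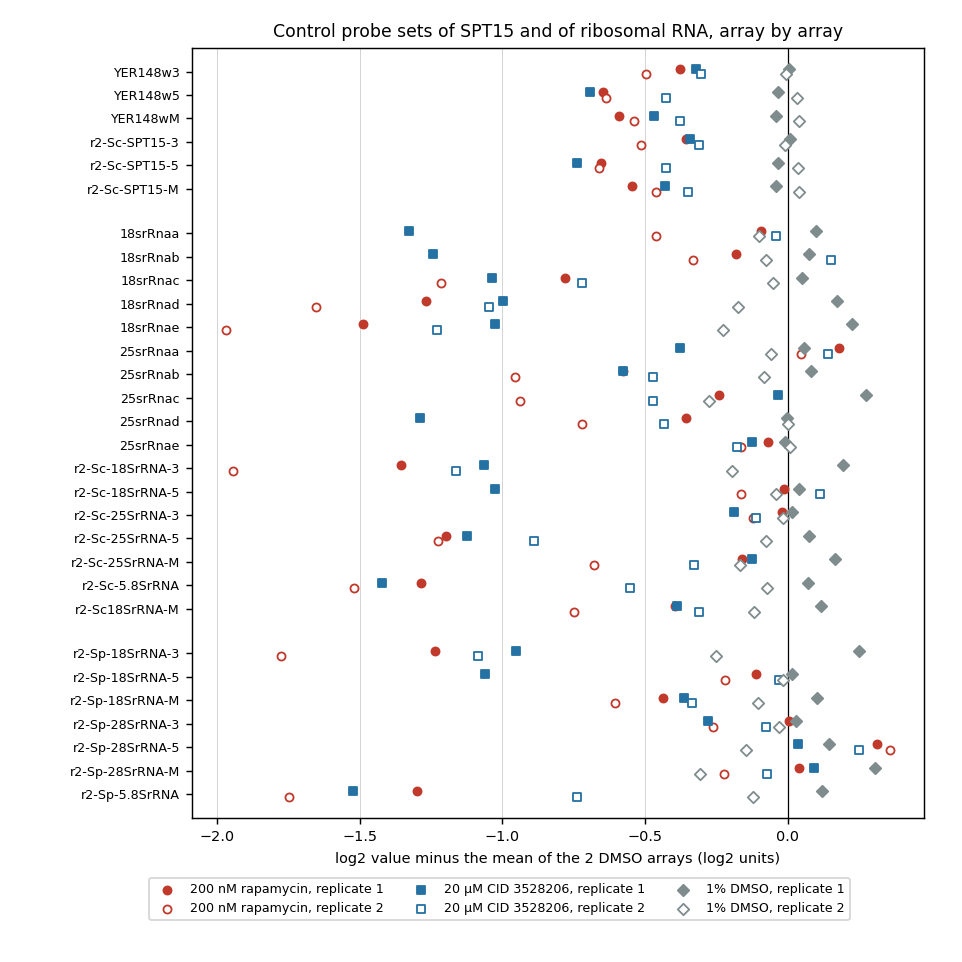
Each line is a control probe set of SPT15 or of ribosomal RNA, with its log2 value in each array minus the mean of the 2 DMSO arrays on the horizontal axis, and filled points for replicate 1 and open points for replicate 2. All SPT15 probe sets lie to the left of the DMSO arrays in treated cells, whereas ribosomal RNA probe sets range from the right of the DMSO arrays, for an S. pombe probe set, to more than 1 log2 unit to their left. That S. pombe probe set read 3.57 or less in every array, under the level of 4.38 used above.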

How the data were processed

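Log2 values per probe set were deposited by the authors, made with RMA per the submitters' processing notes; RMA subtracts background, equalises the quantiles of the arrays and joins the probes of a set. The software version is not given in the sources. Of 10928 probe sets, 213 were controls, 1746 were for S. pombe, 3470 had no gene in the probe table and 1 named several genes. The other 5498 gave 5449 genes, of which 47 had several probe sets and were read by the one with the highest mean. Names were updated for 12 genes through RefSeq assembly R64.

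The model (limma 3.58.1, R 4.3.3; lmFit, then eBayes) held 1 mean for each group over the 6 arrays, leaving 3 residual degrees of freedom, with two-sided tests adjusted by Benjamini-Hochberg over all genes. Control probe sets were tested among all 10928 probe sets. The median standard error of a member's difference was 0.0961, and precision is limited by the number of arrays. Simulated data with 200 changed genes were used to test the fit.

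The members, lists and tests were chosen with earlier results of these data known. Given array by array are 9 central genes and, per role, up to 3 members with the largest difference from DMSO; RPC82 and the genes plotted alone were added after their values were seen. Other pathway genes were counted by list and named for small counts or as the 2 largest differences. The 20 alternatives were leaving out each of the 6 arrays, quantile normalization, median centring, all probe sets, 2 filters that drop low genes, probe sets of 1 gene only, the mean of a gene's probe sets, the 4 arrays of a comparison, an adjusted p under 0.01, trend and robust priors, array weights, the replicate number as a block, a covariate from 3' and 5' control probe sets of 7 genes (SPT15 among them), and, chosen after seeing the data, removal of the trend with gene length. RNAs made by Pol III were not analysed here. No sequences were used here.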

Additional observations from a re-analysis of the deposited data

How the results depend on the processing

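The 12 counts of members and control probe sets were recomputed under 20 alternatives, and 149 of 204 values stayed within 1.5 times the reported count. At an adjusted p under 0.01, 5 members were higher and 5 lower than in DMSO after rapamycin (18.4% and 16.0% of all genes). After CID 3528206, 5 were higher and 4 lower (17.0% and 14.3% of all genes). That threshold left 2 ribosomal RNA and 0 SPT15 probe sets after CID 3528206. Without the genes in the lowest part of the mean values, under 9.46, only 27 members were tested. Of these, 5 were lower after rapamycin and 7 after CID 3528206, with 29.8% and 26.7% of all genes kept. Between the treatments 2 members were higher (13.6% of all genes kept). Median centring gave 17 ribosomal RNA probe sets in each DMSO comparison. The covariate from 3' and 5' probe sets gave 16 members lower after rapamycin (36.4% of all genes), 5 ribosomal RNA and 3 SPT15 probe sets after CID 3528206, and 9 members higher between the treatments (18.2% of all genes). Fitting the 4 arrays of the comparison gave 3 SPT15 probe sets after CID 3528206. Between the treatments, 0 members were lower with all probe sets (1.94% of them), an adjusted p under 0.01 (2.24% of all genes) or array weights (5.01%). With trend and robust priors 2 were higher (11.7% of all genes), and likewise with the length trend removed (13.6%). With the replicate number as a block, between the treatments 2 members were higher (RPA190 and RPA135) and 2 lower (RRN3 and RPC37). Over all genes these shares were 13.7% and 14.0%, and 1 ribosomal RNA probe set was called. Against DMSO the block gave 9 higher and 12 lower after rapamycin (29.5% and 29.1% of all genes). After CID 3528206 it gave 11 and 12 (29.2% and 27.4% of all genes). The labels do not say what arrays with the same replicate number share. The replicate differences correlated between groups over all genes by 0.248 (rapamycin and DMSO), 0.431 (CID 3528206 and DMSO) and 0.317 (CID 3528206 and rapamycin), with 2 arrays in each group. All were positive, and a cause common to arrays of the same number was not tested. Leaving out 1 array gave 4 to 12 higher and 4 to 13 lower members after rapamycin, 3 to 11 and 2 to 14 after CID 3528206, and 0 to 6 and 0 to 7 between the treatments. Ribosomal RNA probe sets ranged over 7 to 12, 3 to 10 and 0 to 4, and SPT15 probe sets over 1 to 6 and 0 to 4 against DMSO, with 0 throughout between the treatments. Calls of single members held under every alternative that measured them (20, or 19 for RRN11, RPC17 and TFC8) for 8 of 18 genes after rapamycin (adjusted p up to 0.0435), 4 of 20 after CID 3528206 (up to 0.0213) and 0 of 1 between the treatments. With all probe sets, RRN6, RRN9, RPC11 and BRF1 lost their rapamycin calls and RPC37, RPC34, RPC11, TFC1 and MAF1 their CID 3528206 calls. Array weights ended the CID 3528206 calls of RPC37, RPC34, TFC1 and MAF1, and quantile normalization that of RPC37. After rapamycin, 10 uncalled members passed under some alternatives: RPC19 under 7, RPA34, RPA12 and RPC25 under 6, and RET1, RPC53 and RRN7 under 5. RPA135 and TFC1 passed under 2 and TFC3 under 1. Some uncalled differences passed the threshold with the opposite sign. RRN10 gave 0.23 (adjusted p = 0.0242) against DMSO and 0.20 (adjusted p = 0.0488) against rapamycin for CID 3528206 with the 3' and 5' covariate, and RPC11 gave 0.24 (adjusted p = 0.0439) against rapamycin without CID 3528206 replicate 1 and -0.24 without replicate 2. RPO21 gave -0.33 (adjusted p = 0.0153) and MSN5 -0.17 (adjusted p = 0.0486) for CID 3528206 against DMSO with the length trend removed. The cause was not tested.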
